A study of Mus musculus with 6 samples.

Results

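Genes of bone morphogenetic protein (BMP) signalling were read in wire-injured carotid arteries of wild-type mice and of mice without IRF4. The members are 10 genes chosen by name: the ligands Bmp2 and Bmp4, the antagonist Grem1, the receptors Bmpr1a and Bmpr2, the SMADs Smad1 and Smad6, and the target genes Id1, Id2 and Id3. All 21 probe sets of the array that carry 1 of these symbols and no other were taken, and each of the 10 genes had at least 1, out of 18194 genes in all. None of the 10 genes differed between the genotypes beyond the spread between arrays. Id1, Id2 and Bmp2 were placed apart on the same 2 arrays, one of each genotype, which was no more than the share of all genes that were (19.8% below and 17.4% above the other arrays).

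The study compared WT mice with mice carrying a global IRF4 knockout (IRF4 KO), the loss being in every tissue. Both genotypes had the wire injury, in which a wire passed through the carotid artery strips its endothelium and a neointima forms, and their arteries were taken 14 days later. Each array held 400 ng of RNA from 3 to 5 pooled vessels, with 3 arrays per genotype that the labels call biological replicates. The labels give no strain, age or sex, leave the deleted stretch of Irf4 unstated, and include no uninjured artery, so the response to injury itself was not measured.

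BMPs are secreted dimers that bind a complex of type I receptors such as BMPR1A and type II receptors such as BMPR2. The receptors phosphorylate SMAD1, SMAD5 and SMAD9, which enter the nucleus with SMAD4 and switch on targets, above all the Id genes, whose products block basic helix-loop-helix transcription factors. The pathway is held in check outside the cell by antagonists such as gremlin and noggin and inside it by SMAD6 and SMAD7. In arteries it is best known for keeping endothelium and smooth muscle quiescent, for pulmonary arterial hypertension caused by loss of BMPR2, and for vascular calcification.

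Values are log2 probe set intensities, and a difference of 1 is a doubling. Arrays are named by genotype and replicate number. The 2 Irf4 probe sets read 3.10 to 3.90 in WT and 3.04 to 3.75 in IRF4 KO, below the median level of all genes (4.89), so they did not check the genotype labels. Of 8 smooth muscle markers, Myh11, the smooth muscle myosin, read 11.44 to 12.30 over the 6 arrays and Des, the muscle intermediate filament desmin, 5.14 to 6.50. The contractile genes Acta2, Tagln and Smtn, named after their values were seen, were higher on every IRF4 KO array than on every WT array: Acta2 read 12.62 to 12.84 in WT and 13.84 to 13.92 in IRF4 KO, and the changes were 1.14, 1.08 and 1.09 (limma adjusted p = 0.252 for each, not past the threshold). The other smooth muscle markers overlapped between the genotypes. Their changes were 0.19 (Myh11), -0.04 (Cnn1), -0.28 (Des), -0.04 (Lmod1) and -0.13 (Myocd). The part of the Acta2, Tagln and Smtn difference in the BMP results was not tested. WT 3 and IRF4 KO 1 stood apart: their poly-A spike-in controls, bacterial transcripts added before labelling, averaged 4.93 and 5.14 against 7.35 to 9.26 on the other 4 arrays. All 12 cartilage markers separated these 2 arrays from the other 4, 11 of them upward, with Col2a1 at 12.07 and 12.16 against 3.75 to 5.15. The mean level of 8 macrophage markers was 7.07 and 7.94 there against 4.50 to 5.43, and that of 7 fibroblast markers 10.01 and 10.47 against 8.14 to 8.20. Of the macrophage markers, 6 were above all other arrays on both, and Fcgr1 and Mrc1 were not. Mrc1, named after its values were seen, read 4.12 to 4.28 in WT and 3.10 to 3.30 in IRF4 KO. Its change was -1.03 (limma adjusted p = 0.291, not past the threshold). Results are therefore also given within WT 3 and IRF4 KO 1 and within the other 4 arrays, and what part these markers or the spike-in level have in any result was not tested.

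Promoters of the members were read for letters that SMADs are known to bind. Those of Id2, Id3 and Smad6 are printed because the brightest probe set of Id2 was ordered over the arrays differently from Id3 and Smad6. That choice was made after the values were seen. Whether the orders differ beyond the spread, or the letters bear on them, was not tested. RefSeq windows (GRCm38.p6) matched 8 of the 10 members; Bmp2 and Id1 had none. The 250 bases before each start were searched on both strands for GGCGCC, a GC-rich SMAD1/5 element that reads the same on both, and for the short SMAD box GTCT, which reads AGAC on the other. Matches are in capitals, each sequence runs 5′ to 3′ along the gene's strand, and the last base lies next to the start.
Id2, chr12:25096093-25096342, minus strand: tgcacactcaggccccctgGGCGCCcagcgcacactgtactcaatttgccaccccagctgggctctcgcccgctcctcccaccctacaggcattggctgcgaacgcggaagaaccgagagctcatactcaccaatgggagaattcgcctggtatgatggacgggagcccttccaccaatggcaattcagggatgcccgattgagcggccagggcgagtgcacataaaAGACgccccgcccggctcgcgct
Id3, chr4:136143572-136143821, plus strand: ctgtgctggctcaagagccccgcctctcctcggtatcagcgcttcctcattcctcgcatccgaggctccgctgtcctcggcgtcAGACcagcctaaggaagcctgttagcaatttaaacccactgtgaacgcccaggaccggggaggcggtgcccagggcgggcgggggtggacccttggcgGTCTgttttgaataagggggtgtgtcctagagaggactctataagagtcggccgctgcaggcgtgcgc
Smad6, chr9:64022060-64022309, minus strand: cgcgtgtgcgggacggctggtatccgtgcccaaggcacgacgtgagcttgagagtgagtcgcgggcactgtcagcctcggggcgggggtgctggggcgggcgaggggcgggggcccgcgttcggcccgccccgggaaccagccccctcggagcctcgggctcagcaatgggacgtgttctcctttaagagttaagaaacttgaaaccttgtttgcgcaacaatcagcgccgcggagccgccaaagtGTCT

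Id2 held 1 GGCGCC and 1 SMAD box in this window, Id3 held 2 SMAD boxes and no GGCGCC, and Smad6 held 1 SMAD box. Grem1, Bmpr1a and Bmpr2 each held 1 GGCGCC as well, and Grem1 held 4 SMAD boxes. Of 32817 windows of the same length, 9.59% held GGCGCC and 82.9% held the SMAD box, so the short box is common in any promoter. The member windows were 62.8 to 78.8% GC, whereas the median of all windows was 52.4%. The background share of GGCGCC is therefore not matched for GC content. A match describes letters and no binding was measured.

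The ligands did not differ between the 2 genotypes beyond the spread between arrays, and equality was not tested. Bmp2, which drives bone and cartilage formation and is induced in injured and calcifying vessels, read 6.76, 6.19 and 7.39 in WT 1 to 3 and 6.83, 6.78 and 6.29 in IRF4 KO 1 to 3. WT 3 was the highest and WT 2 the lowest, so the WT arrays alone spanned all IRF4 KO values. The means were 6.78 ± 0.60 and 6.64 ± 0.30 (SD, n = 3), a log2 change (IRF4 KO minus WT) of -0.14 (SE 0.32, 95% interval -0.87 to 0.58). Bmp4, a close relative of Bmp2 that is made by endothelium under disturbed flow, read 8.35, 8.97 and 8.83 in WT and 8.88, 9.15 and 8.60 in IRF4 KO. The genotypes overlapped, with WT 1 lowest and IRF4 KO 2 highest. Its change was 0.16 (SE 0.24, interval -0.39 to 0.71). In these whole vessels, fewer cells of a type and less RNA per cell cannot be told apart.

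Grem1, whose product gremlin binds BMP2 and BMP4 and keeps them from their receptors, was dim. It read 3.72, 3.55 and 3.58 in WT and 3.45, 3.57 and 4.16 in IRF4 KO, all below the median gene level of 4.89. Only IRF4 KO 3 stood above the WT range. The change was 0.11 (SE 0.23, interval -0.42 to 0.64), and dim values understate any difference on these arrays.

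The type II receptor Bmpr2 was the steadiest of the members when each was read by its brightest probe set. Its brightest probe set read 9.45, 9.65 and 9.60 in WT and 9.40, 9.70 and 9.54 in IRF4 KO, a span of 0.29 over all 6 arrays. The means were 9.57 ± 0.10 and 9.55 ± 0.15 (SD, n = 3), and the change was -0.02 (SE 0.18). The interval, -0.44 to 0.40, is the narrowest among the members and runs from 0.739-fold to 1.32-fold. The other Bmpr2 probe sets, both much dimmer, gave changes of -0.29 (1419616_at) and 0.05 (1441652_at). They were less steady, with spans of 1.36 and 0.66 in that order.

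The type I receptor Bmpr1a had 6 probe sets, and they did not share a direction. The brightest (1425492_at) read 9.37, 9.89 and 9.77 in WT and 9.69, 9.91 and 9.81 in IRF4 KO, with WT 1 the lowest array. Its change was 0.13 (SE 0.20, interval -0.34 to 0.60). Over the 6 probe sets the changes ran from -0.36 (1451729_at) to 0.58 (1425491_at), 3 higher and 3 lower in IRF4 KO. Probe set 1425491_at read 5.84, 7.01 and 6.18 in WT and 6.94, 6.89 and 6.92 in IRF4 KO. Its spread was far larger in WT (SD 0.60) than in IRF4 KO (SD 0.02), and WT 2 lay above every IRF4 KO array, so the genotypes overlapped.

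Smad1, which carries the BMP signal from the receptors to the nucleus, had the largest difference among the 10 genes and did not pass. Its brightest probe set (1459843_s_at) read 8.38, 8.06 and 8.57 in WT and 7.49, 8.19 and 7.95 in IRF4 KO. IRF4 KO 1 was the lowest and IRF4 KO 2 lay within the WT range. The means were 8.34 ± 0.25 and 7.88 ± 0.36 (SD, n = 3), a change of -0.46 (SE 0.24, interval -1.02 to 0.10). Read within the array sets, the change was -1.08 (IRF4 KO 1 against WT 3) and -0.15 (other 4 arrays). Without IRF4 KO 1 it was -0.27. The next Smad1 probe set (1448208_at) gave -0.19, whereas 1416081_at gave 0.37 in the opposite direction, with WT 1 the lowest array at 5.26. The direction of Smad1 thus depends on the probe set read.

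Smad6, an inhibitory SMAD that is itself induced by BMP and shear stress, was the member with the largest positive difference. It read 6.72, 7.26 and 7.34 in WT and 7.95, 7.94 and 6.77 in IRF4 KO. IRF4 KO 1 and 2 lay above every WT array, but IRF4 KO 3 was next to WT 1 at the bottom. The means were 7.11 ± 0.33 and 7.55 ± 0.68 (SD, n = 3), a change of 0.45 (SE 0.35, interval -0.35 to 1.24). It was positive within both sets of arrays, 0.61 for IRF4 KO 1 against WT 3 and 0.37 for the other 4. Without IRF4 KO 3 it was 0.84, which did not pass after adjustment, and without any one of WT 1, IRF4 KO 1 and IRF4 KO 2 it was 0.25 to 0.26.

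The 3 Id genes, the standard readout of BMP activity, did not differ by genotype beyond the spread between arrays, and equality was not tested. Id1 read 8.88, 9.49 and 8.61 in WT and 8.53, 9.58 and 9.24 in IRF4 KO, a change of 0.12 (SE 0.33, interval -0.63 to 0.87). Id2 read 9.81, 10.34 and 9.23 in WT and 9.25, 10.43 and 9.91 in IRF4 KO, a change of 0.07 (SE 0.37, interval -0.77 to 0.91). In both genes the lowest arrays were WT 3 and IRF4 KO 1 and the highest were IRF4 KO 2 and WT 2, followed by IRF4 KO 3 and WT 1, so both genotypes lay at either end of the order. Id3 read 9.33, 9.48 and 9.72 in WT and 9.79, 9.75 and 9.26 in IRF4 KO, a change of 0.09 (SE 0.22, interval -0.42 to 0.59). Its order was another one, with IRF4 KO 1 highest and IRF4 KO 3 lowest. From the top, Id3 and Smad6 shared the sequence IRF4 KO 1, IRF4 KO 2, WT 3 and WT 2. The other Id2 probe sets did not keep that order at the low end: on 1422537_a_at (change 0.11) WT 3 was lowest but IRF4 KO 1, at 8.82, lay above WT 1, at 8.57, and on 1453596_at (change -0.15) IRF4 KO 3 was lowest.

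**Figure D1:**
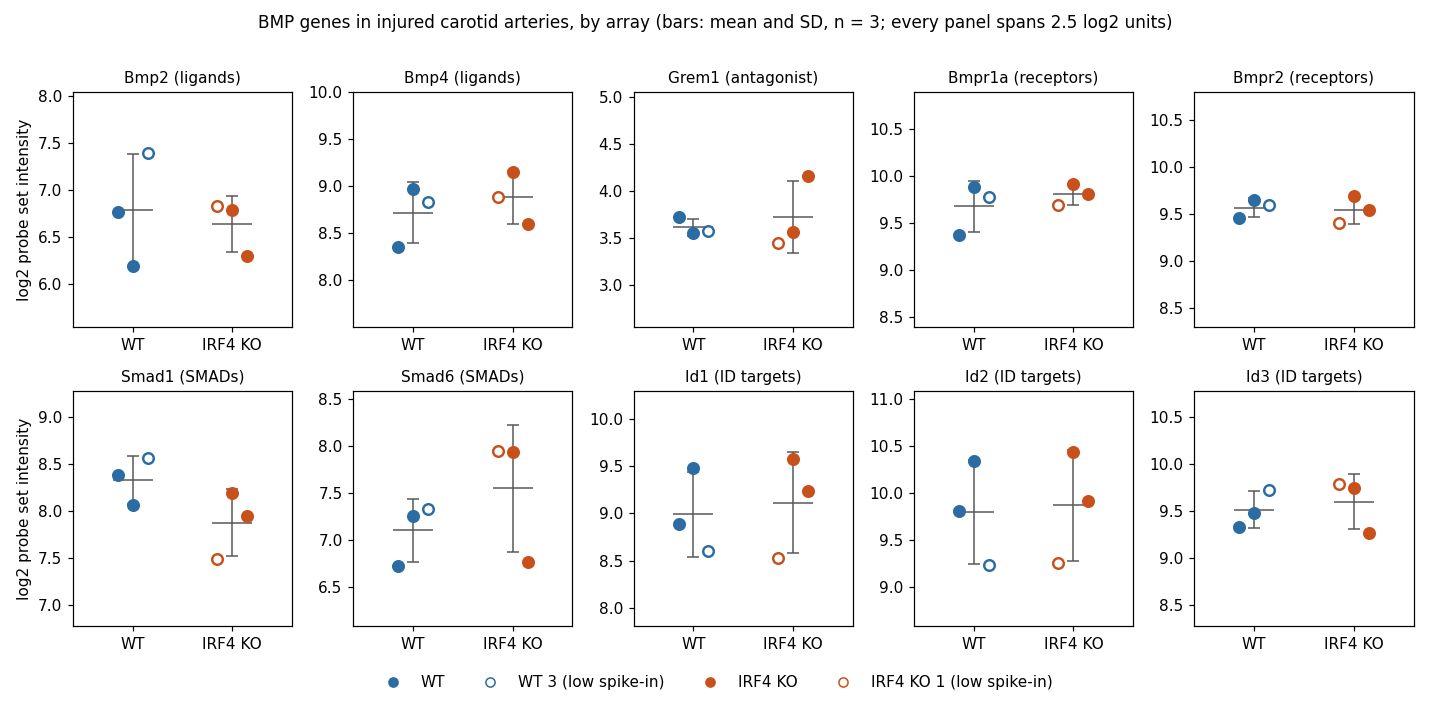
Log2 intensity of the brightest probe set of each of the 10 BMP genes (y axis; every panel spans 2.5 log2 units) on the 3 WT and 3 IRF4 KO arrays, with mean and SD; open circles are WT 3 and IRF4 KO 1, which had low spike-in controls. The genotypes overlap in every panel, and the open circles are the lowest points for Id1 and Id2.

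Over the members, 0 of 10 genes had a limma adjusted p under 0.05, as did 0 of 18194 genes (0%). At an unadjusted p under 0.05 there were 0 of 10 members, against 1.49% of all genes, and at p under 0.001 also 0 of 10, against 0.143%. All 10 had an adjusted p of 0.999, and Smad1 came closest before adjustment. The genotypes did not overlap in 0 of 10 members, against 5.68% of all genes. The median change of the 10 was 0.10, with 7 genes higher and 3 lower in IRF4 KO, beside -0.0015 over all genes. The median size of change regardless of direction was 0.13 for the members and 0.15 for all genes. The 95% intervals of the single members reached from -1.02 (Smad1) to 1.24 (Smad6), which are 0.494-fold and 2.37-fold, the lower end for Smad1 and the upper end for Smad6.

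The probe sets gave the same picture. Fitted together with all 34958 probe sets of 1 gene, 0 of 21 passed (0% of all passed), 0 had an unadjusted p under 0.05 (1.83% of all), and 0 showed genotypes that did not overlap (6.24% of all). Of the 21, 12 were higher and 9 lower in IRF4 KO. Probe sets of 1 gene share their RNA and are not replicates.

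**Figure D2:**
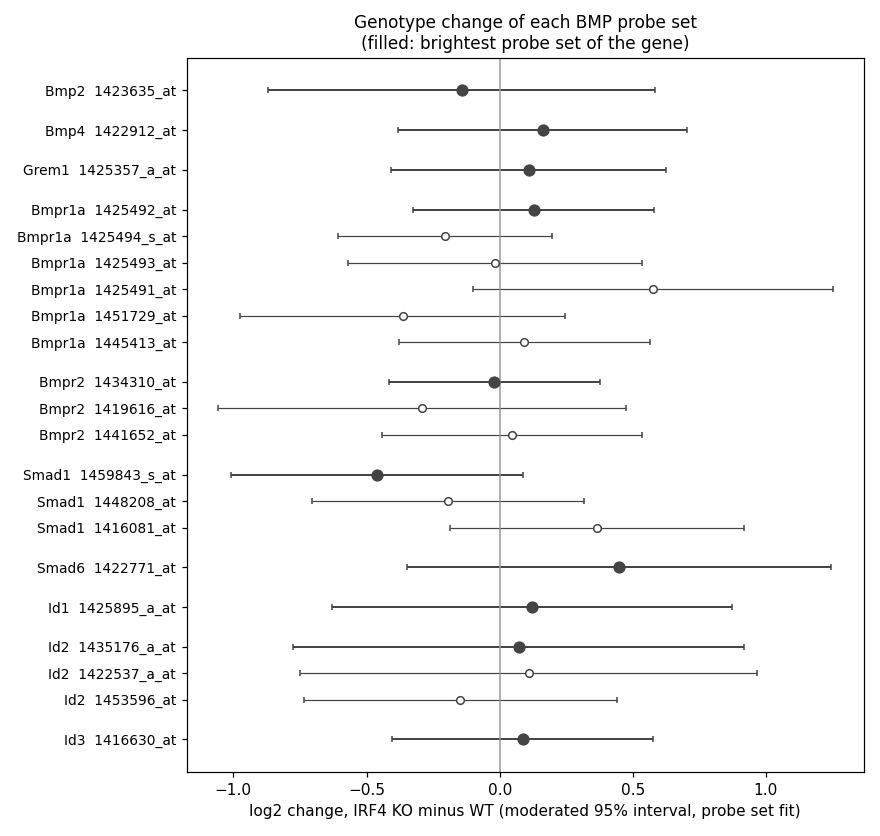
Log2 change (IRF4 KO minus WT, x axis) with its moderated 95% interval for each of the 21 probe sets, in the fit over all probe sets; filled points are the brightest probe set of a gene. Every interval includes 0, and the probe sets of Bmpr1a and of Smad1 lie on both sides of it.

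The other genes of the pathway were read from lists of 53 genes, of which 48 were analysed here through a probe set of their own. No gene passed in either direction, and 30 were higher and 18 lower in IRF4 KO, with a median change of 0.08. At an unadjusted p under 0.05 there were 2 of 48 (Bmp8a and Acvr2a), beside 1.49% of all genes. The genotypes did not overlap in 5 of 48, beside 5.68% of all genes: Bmp8a was higher in IRF4 KO, and Acvr2a, Smad9, Bambi and the co-receptor gene Rgmb, named after its values were seen, were lower. For Rgmb the gap was very narrow, with WT 3 at 5.065 and IRF4 KO 1 at 5.060. Its change was -0.15, and its other probe sets gave -0.16 to 0.18. These counts read the brightest probe set of each gene. Dimmer probe sets of Smurf2 and Twsg1, named after their values were seen, also separated the genotypes, as 6.24% of all probe sets did, and did not pass. Smurf2 gave -0.61 (1429045_at), beside 0.0011 in its brightest probe set and 0.06 in 1429046_at. Twsg1 gave 0.79 (1421832_at), beside 0.39 in its brightest probe set and 0.0031 and 0.15 in the others.

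Among 9 other ligands, 6 were higher and 3 lower. Bmp8a averaged 3.70 ± 0.15 in WT and 4.16 ± 0.22 in the knockout (SD, n = 3), without overlap but below the median gene level throughout (change 0.46, SE 0.20, adjusted p = 0.999). Bmp7 read 4.34 ± 0.15 and 4.63 ± 0.20. In 8 of the 9 the WT mean lay under the median gene level.

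Among 9 other receptors and co-receptors, 6 were higher and 3 lower. Acvr2a, a type II receptor shared by activins and BMPs, read 7.17, 6.75 and 6.76 in WT and 6.48, 6.42 and 6.41 in IRF4 KO. All IRF4 KO arrays were below all WT arrays, and the change was -0.46 (SE 0.19, limma adjusted p = 0.999). Its other probe set, 1451004_at, was dim and gave 0.02. Hjv, the iron-sensing co-receptor, read 5.17 ± 0.44 and 4.66 ± 0.05. The type I receptors Acvr1 and Acvrl1 read 7.76 ± 0.65 and 8.11 ± 0.45, and 6.07 ± 0.11 and 6.16 ± 0.62 (SD, n = 3, WT then IRF4 KO). Endoglin (Eng), the endothelial co-receptor, read 6.98 ± 0.24 and 7.19 ± 0.26.

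Among 6 other SMADs and their ubiquitin ligases, 3 were higher and 3 lower. Smad7, the second inhibitory SMAD, read 6.39, 6.08 and 6.65 in WT and 6.71, 7.14 and 6.53 in IRF4 KO. WT 3 lay above IRF4 KO 3, so the genotypes overlapped, and the change was 0.42 (SE 0.24), near that of Smad6. Smad5, the partner of Smad1, read 6.25 ± 0.27 and 6.12 ± 0.34, and Smad9 was dim at 3.01 ± 0.15 and 2.71 ± 0.11 (SD, n = 3).

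Among 17 antagonists and extracellular modulators, 11 were higher and 6 lower. Bambi, a decoy receptor without a kinase, read 7.55, 7.91 and 7.91 in WT and 7.48, 7.30 and 7.44 in IRF4 KO. All IRF4 KO arrays were below all WT arrays, and the change was -0.38 (SE 0.19, adjusted p = 0.999). Twsg1, which binds BMPs together with chordin, read 8.95 ± 0.44 and 9.34 ± 0.08, and noggin (Nog) was dim at 2.46 ± 0.22 and 2.20 ± 0.13. Mgp, the matrix protein that binds BMP2 and keeps arteries from calcifying, was very bright at 13.36 ± 0.36 and 13.44 ± 0.30 (SD, n = 3).

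Among 7 other target genes, 4 were higher and 3 lower. Atoh8 read 5.47 ± 0.25 and 5.96 ± 0.36, Dlx5 4.54 ± 0.28 and 4.80 ± 0.13, and Id4 7.96 ± 0.68 and 7.88 ± 0.75 (SD, n = 3, WT then IRF4 KO).

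Within WT 3 and IRF4 KO 1 and within the other 4 arrays the members gave partly opposed differences. The sign was the same in 5 of the 10: Bmp4 (0.06 and 0.21), Smad1 (-1.08 and -0.15), Smad6 (0.61 and 0.37), Id2 (0.02 and 0.10) and Id3 (0.07 and 0.10), the first value being IRF4 KO 1 minus WT 3. It was opposed for Bmp2 (-0.56 and 0.06), Grem1 (-0.13 and 0.23), Bmpr1a (-0.08 and 0.23), Bmpr2 (-0.20 and 0.07) and Id1 (-0.08 and 0.22). Over all genes the sign was the same in 9473 of 18194, and over the other pathway genes in 27 of 48. The members were near these shares, so as a group they did not stand apart in this. With the 2 sets of arrays as a block, 0 of 10 members had an unadjusted p under 0.05, against 3.68% of all genes. Over the other 4 arrays alone, 0 of 10 members passed, against 0.0275% of all genes, and their adjusted p was 0.999 in every case.

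**Figure D3:**
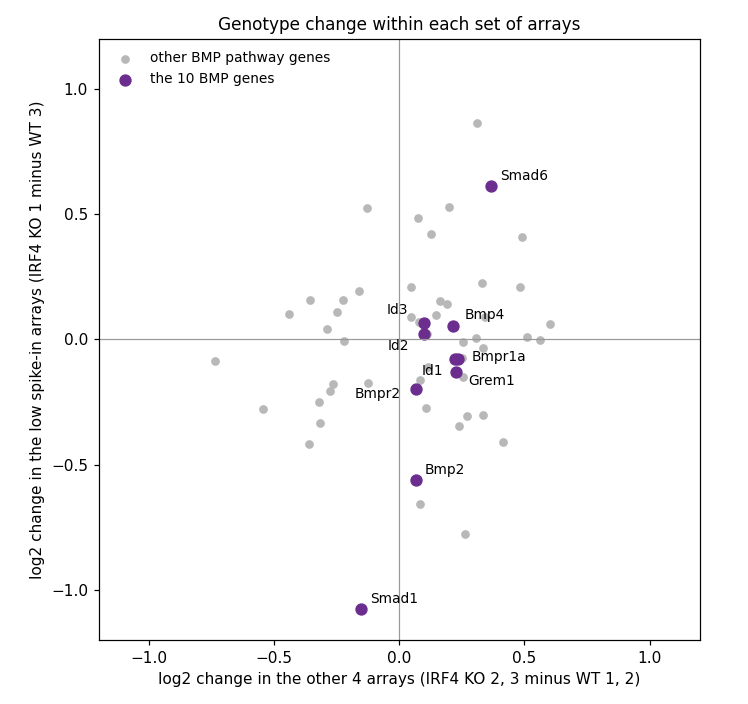
Log2 change by genotype in the other 4 arrays (IRF4 KO 2 and 3 minus WT 1 and 2, x axis) against that in the low spike-in arrays (IRF4 KO 1 minus WT 3, y axis), for the 10 BMP genes and 48 other pathway genes. Smad6 is higher in IRF4 KO on both axes (0.37 and 0.61), Smad1 is lower on both (-0.15 and -1.08), and 5 of the 10 lie in quadrants of opposed sign. Over all genes the sign was the same in 9473 of 18194.

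Id1, Id2 and Bmp2 were placed by array set, not by genotype. Id2 averaged 0.88 log2 units and Id1 0.73 units less on WT 3 and IRF4 KO 1 than on the other 4 arrays, and both arrays were below all others, for Id2 in 1 of its 3 probe sets. The shift was larger in 5.92% of all genes for Id2 and 9.24% for Id1. Bmp2 was the opposite case, with both arrays above all others and an average shift of 0.60, which 14.0% of all genes exceeded. WT 3 carried most of it (7.39), while IRF4 KO 1 (6.83) was next to IRF4 KO 2 (6.78). Id3 averaged 0.30 units more there, with WT 3 within the range of the others. Both arrays were below all others in 2 of 10 members (19.8% of all genes) and above in 1 of 10 (17.4%), shares near the background, so as a group the members did not stand apart in this.

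Outside the members, pathway genes lay on both sides. Of the 48, both arrays were above all others in 9 and below in 8, shares near the 17.4% and 19.8% of all genes, and of the 17 antagonists and modulators they were above in 5 and below in 3. The following examples were, apart from Bmper, Mgp and Acvr1, named after their values were seen. Bmper, a BMP-binding endothelial regulator, read 5.23 and 5.32 on WT 3 and IRF4 KO 1 and 2.89 to 3.37 elsewhere. Follistatin (Fst), which traps activins and some BMPs, read 7.02 and 7.06 there and 4.73 to 5.16 elsewhere. The antagonist gene Nbl1 read 6.99 and 7.41 against 6.02 to 6.33, and Fstl1 was 0.61 higher and Mgp 0.54 higher on average. The receptor Acvr1 was 0.80 higher in its brightest probe set, but its other probe sets did not share a direction. They gave 0.46 (1416786_at) and -0.58 (1416787_at), the latter with both arrays below all others. Sclerostin (Sost), better known from bone, had the array order of Id1 in its brighter probe set, 1450179_at: it read 10.47 on WT 3 and 10.06 on IRF4 KO 1 against 10.81 to 11.81. Beside these values, 11 of 12 cartilage, 6 of 8 macrophage and 6 of 7 fibroblast markers were higher on both of these arrays than on all others, and the spike-in controls were lower.

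**Figure D4:**
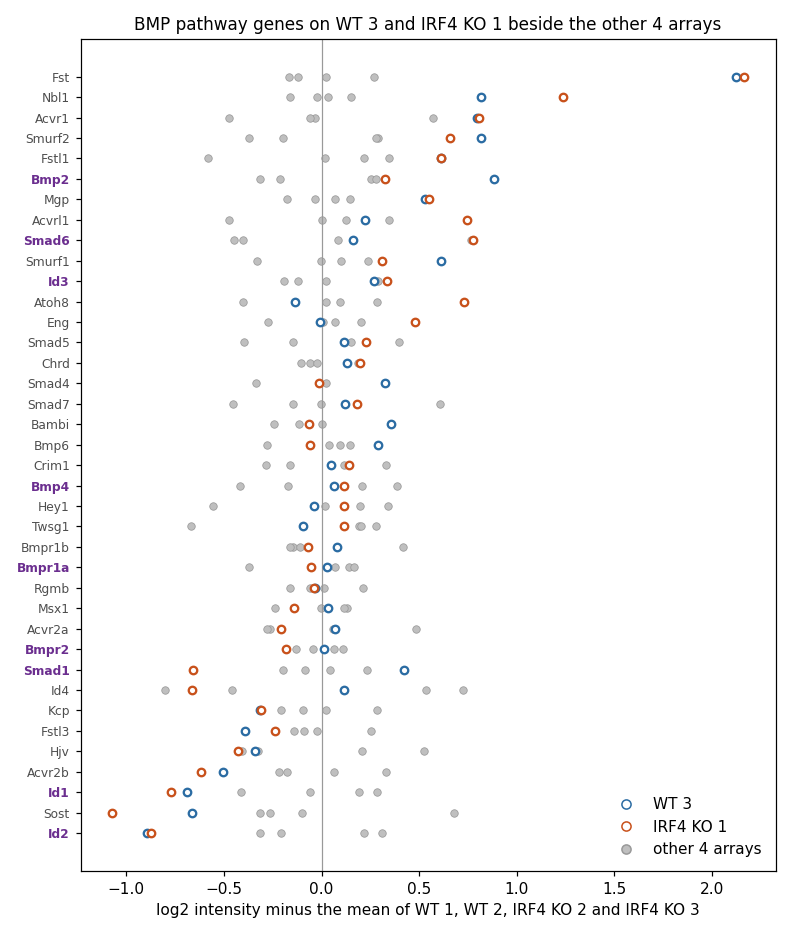
Log2 intensity relative to the mean of WT 1, WT 2, IRF4 KO 2 and IRF4 KO 3 (x axis) for 38 BMP pathway genes above the median gene level, sorted by the average shift; open circles are WT 3 (blue) and IRF4 KO 1 (orange), grey points the other 4 arrays, and bold names the members. Fst is farthest to the right (2.14 on average) and Id2 farthest to the left (-0.88 on average), and the blue and orange circles lie close together for Id2, Fst and Mgp.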

How the data were processed

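RNA of 3 WT and 3 IRF4 KO pools of injured carotid arteries was hybridised to Affymetrix mouse arrays. The authors deposited log2 intensities per probe set; the submitters' processing notes name RMA and Affymetrix Expression Console, without version or setting. RMA draws dim probe sets together. Of 45101 probe sets, 34958 had 1 gene symbol in the platform annotation. Each of 18194 genes was represented by its brightest probe set over the 6 arrays, and no dim gene was removed. Genotypes were compared across all genes, and across all 34958 probe sets, by limma's lmFit and eBayes (limma 3.58.1, R 4.3.3, two-sided, no covariate, Benjamini-Hochberg adjustment, threshold 0.05). SE and intervals are limma's moderated ones. The code was tested on simulated data. The number of arrays limits the precision.

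Members, lists and alternatives were chosen with earlier results of these data known. Named pathway genes are 9 set in advance (Smad5, Smad7, Acvr1, Acvrl1, Eng, Nog, Mgp, Bmper and Id4) and the 2 with the smallest p in each list. The alternatives tried were averaging a gene's probe sets, a replicate block, dim genes left out, array median subtraction, quantile normalization, a robust trend, array weights, the fit over all probe sets, other thresholds, leaving out each array, and WT 3 with IRF4 KO 1 as a block or left out. Deviations of same-numbered arrays from their genotype means correlated at -0.52, 0.37 and -0.62 across genes, so replicate numbers were not used as pairs in the main fit. Those of WT 3 and IRF4 KO 1 correlated at 0.68. Because these 2 arrays stand apart, the correlations cannot decide whether same-numbered pools were handled together.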

Additional observations from a re-analysis of the deposited data

How the results depend on the processing

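No member passed under any alternative run, among them the replicate block (0 of 10) and adjusted p under 0.10 or 0.25. In these settings 0 of all genes passed as well. The same held in the other alternatives, apart from array weights and leaving out both low spike-in arrays. Where no gene passed, the count of 0 members says nothing particular about them. With array weights, which gave IRF4 KO 2 a weight of 26.7 and the other arrays 0.28 to 2.57, 2 members had an unadjusted p under 0.05 (Smad6, change 0.72, and Id3, change 0.25), 68 of all genes passed, 1 other pathway gene passed (Smad7, change 0.94, adjusted p = 0.0409), and the members' median change was 0.25. That fit rests largely on 1 array, and its weights stopped short of convergence. The replicate block left 128 of all genes with an unadjusted p under 0.05 against 271 without it, no member among either. Grem1 has no value with dim genes left out. Without both low spike-in arrays 5 of all genes passed, none a member. Leaving out each array in turn gave 0 to 1 members with an unadjusted p under 0.05 (Smad6 without IRF4 KO 3) and a median change of -0.041 to 0.17, negative without IRF4 KO 2 and without WT 1.

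Of 159 recomputed member changes, 139 kept their direction and 20 turned, all from values inside the arrays' spread. Part of the 139 could not have turned, because some settings alter only the error estimate or the set of genes fitted. These were both blocks, dim genes left out, the robust trend and the fit over all probe sets, where each change equalled that of the main fit. Averaging probe sets likewise left genes without a further probe set unchanged. The count of 139 therefore overstates how stable the directions were. With array weights Bmp2 was 0.37, Grem1 -0.0039, Bmpr2 0.069 and Smad1 0.016; without both low spike-in arrays Bmp2 was 0.065 and Bmpr2 0.067; with quantile normalization Bmpr2 was 0.0055. Leaving out each array gave -0.44 to 0.16 for Bmp2, -0.023 to 0.30 for Bmp4, -0.023 to 0.23 for Bmpr1a, -0.095 to 0.051 for Bmpr2, -0.11 to 0.25 for Grem1, -0.11 to 0.42 for Id1, -0.21 to 0.38 for Id2 and -0.0082 to 0.26 for Id3. Smad6 stayed positive in all settings run and Smad1 negative in all but array weights. The cause of these turns was not tested.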
